A study of Mus musculus with 6 samples.

Results

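Amino acid and peptide transporter genes were followed in mouse small intestine, in libraries labelled Erk1/2-KO and in wild-type (WT) libraries. The members were the 54 of 24452 gene symbols that belong to the solute carrier families Slc1a, Slc3a, Slc7a, Slc15a, Slc36a, Slc38a and Slc43a, together with Slc6a6, Slc6a14, Slc6a19, Slc6a20a and Slc6a20b. They were chosen by symbol alone. The symbols Slc7a6os and Slc36a1os match the rule but name no transporter. All mice were C57BL/6 at postnatal day 14, when pups still suckle. The labelled Erk1/2-KO group held 3 libraries with the genotype Erk1/2 -/-, and the WT group held 3 libraries with the genotype wild type. The labels give no Cre driver, no deleted exon, and no word on whether each library is its own animal. The p-values therefore rest on differences among these 6 libraries, which may be technical. RNA was sequenced from whole frozen tissue, in which fewer cells of a type and less RNA per cell cannot be told apart.

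Enterocytes take up the products of protein digestion in 2 steps. Transporters of the brush border bring in di- and tripeptides, coupled to protons, and free amino acids, many of them coupled to sodium. Transporters of the basolateral membrane then release amino acids to the blood, and several of these are exchangers built from a heavy chain (an Slc3 protein) and a light chain (an Slc7 protein). Other members sit on lysosomes, where they export amino acids or report on them to the growth kinase complex mTORC1.

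The values are the authors' normalised counts per gene symbol. They summed to between 14825845 and 17153570 in the labelled Erk1/2-KO libraries and to between 13641468 and 14094100 in the WT libraries. The gene Mapk3, which encodes ERK1, had 3363, 2280 and 2734 normalised counts in labelled Erk1/2-KO 1 to 3, against 3142, 2788 and 2004 in WT 1 to 3. The groups overlapped, with no lower level under the Erk1/2-KO label (log2 fold change 0.09 ± 0.22, limma adjusted p = 0.819), so every direction below is that of labelled libraries. Labelled Erk1/2-KO 1 and WT 3 stood apart from the other libraries in genes that mark the position along the intestine. The difference between mean log2 levels of 10 proximal and 4 ileal genes was -0.42, 4.11 and 4.05 in labelled Erk1/2-KO 1 to 3, against 3.20, 2.71 and -0.80 in WT 1 to 3. Xist, a transcript of the inactive X chromosome, was abundant in labelled Erk1/2-KO 2 and 3 and in WT 3, and transcripts of the Y chromosome were at 0 in those libraries and present in the other 3, so each group held both sexes. Epithelial markers were abundant in every library: the enterocyte list summed to between 413519 and 646091 in the labelled Erk1/2-KO libraries and to between 385243 and 502024 in the WT libraries.

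Of the 54 members, 44 passed the filter of at least 10 normalised counts in at least 3 libraries. Tests used limma on log2(normalised count + 1) across 14686 genes, and a gene was called at a Benjamini-Hochberg adjusted p under 0.05 over all of them. In the libraries labelled Erk1/2-KO, 3 members were called lower and 0 were called higher. The 3 were Slc43a3, Slc7a8 and Slc38a5. Slc38a5 and the uncalled Slc38a11 passed the filter through their WT levels alone, so their tests are no support for a difference; with a filter on the mean over all 6 libraries 42 members were tested and the calls were Slc43a3 and Slc7a8. Across all genes tested, 8.79% were called, 3.94% lower and 4.85% higher, so the members' share of 6.82% lay near the background. Of all calls 55.2% were higher, against 44.5% after scaling by upper quartiles and 29.6% after scaling by totals, which moved the median of all genes to -0.19 on the log2 scale; the 3 members were called lower under each. At an unadjusted p under 0.05, 3 members were higher and 7 lower, 22.7% of those tested, against 30.3% of all genes tested. The libraries of the 2 genotypes did not overlap for 11 members, 5 above and 6 below WT, which is 25% of those tested, against 37.6% of all genes. The median log2 fold change of the tested members was 0.05, against -0.01 over all genes tested, and the median absolute log2 fold change was 0.29, against 0.36. The summed level of all 54 members was 49152, 44644 and 41486 normalised counts in labelled Erk1/2-KO 1 to 3, against 44292, 43689 and 49676 in WT 1 to 3, and the groups overlapped. The count of calls depended on the libraries and covariates. It was 0 without WT 2 or without labelled Erk1/2-KO 3, 1 without WT 1, WT 3 or labelled Erk1/2-KO 2, and 8 without labelled Erk1/2-KO 1. In the last setting 20.6% of all genes were called, and both libraries left under the Erk1/2-KO label had abundant Xist. Label and sex were therefore only partly separable there. With the segment score as a covariate 10 members were called, 3 higher and 7 lower, where 29.2% of all genes were called. Leaving out both labelled Erk1/2-KO 1 and WT 3 left labelled Erk1/2-KO 2 and 3, with abundant Xist, against WT 1 and 2, with Y transcripts. Label and sex therefore cannot be told apart in that setting, where 26.4% of all genes were called.

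**Figure D1:**
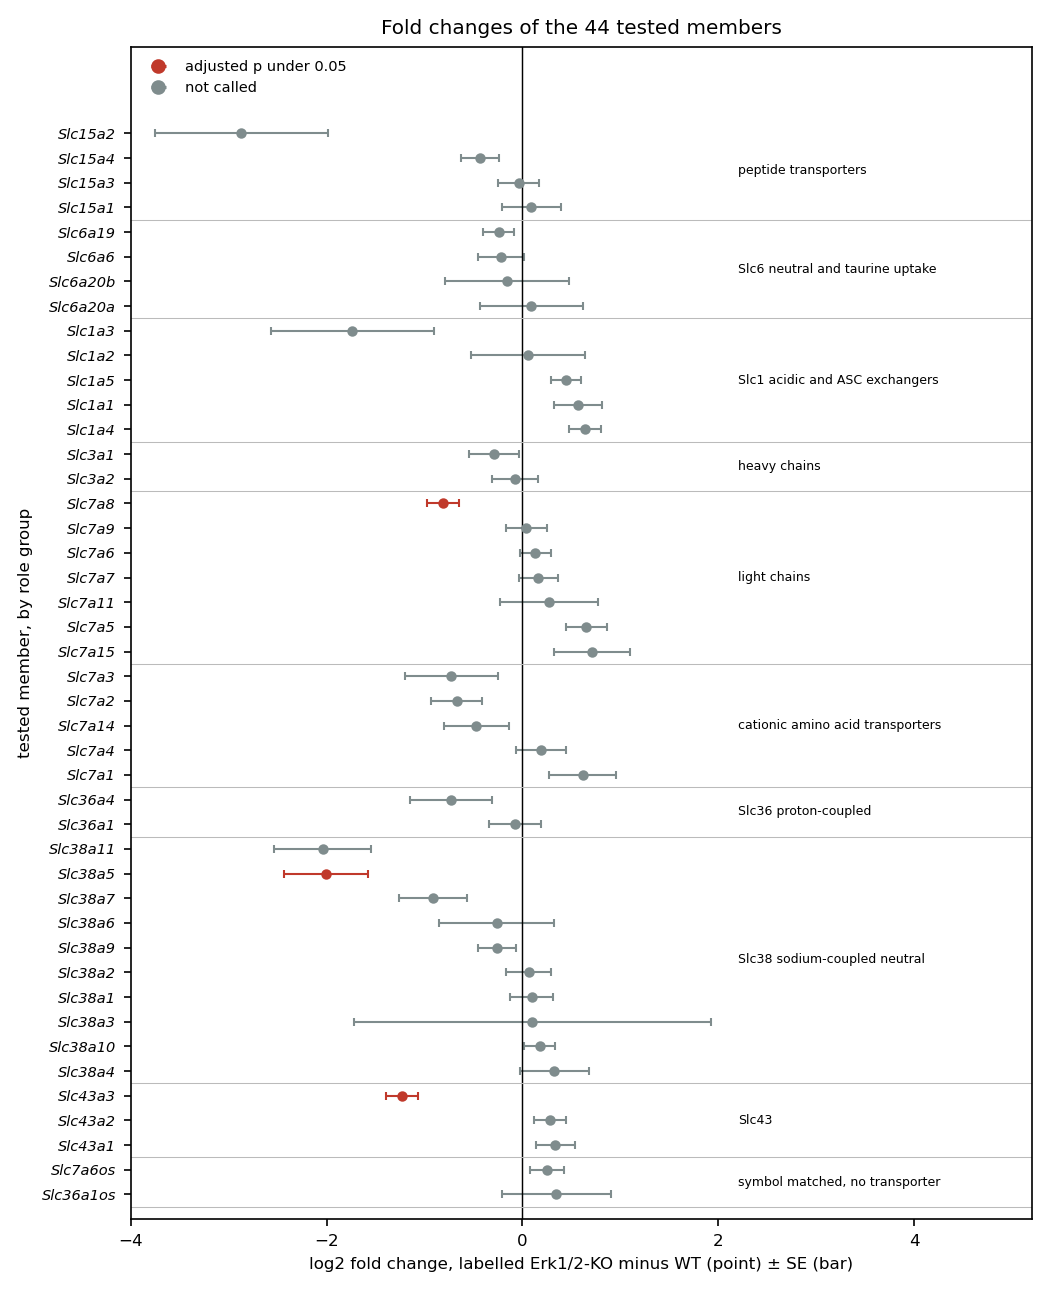
Log2 fold change of each tested member, labelled Erk1/2-KO minus WT, on the log2(normalised count + 1) scale, with the limma standard error as a bar; rows are grouped by role. The called members Slc43a3, Slc7a8 and Slc38a5 all lie left of 0, and the bar of Slc38a3 is the widest at 1.82.

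Slc7a8 was the most abundant of the called members. It encodes LAT2, the light chain of an exchanger of neutral amino acids on the basolateral side of enterocytes, and lies on chromosome 14 from 54722209 to 54781946 (minus strand, GRCm38). It had 1888, 1876 and 1386 normalised counts in labelled Erk1/2-KO 1 to 3, against 3100, 3079 and 2803 in WT 1 to 3. Every library labelled Erk1/2-KO lay below every WT library. Slc7a8 averaged 1717 ± 286 in the labelled Erk1/2-KO libraries and 2994 ± 166 in the WT libraries (SD, n = 3 each). On the log2 scale it differed by -0.82 ± 0.16 (SE), with a limma adjusted p of 0.0343. Leaving out labelled Erk1/2-KO 1 kept the call (adjusted p = 0.0163), and leaving out any other single library ended it, with adjusted p-values from 0.0557 to 0.165 and log2 fold changes from -0.89 to -0.67. The call also ended with sex as a covariate and held with the segment score as a covariate, at -0.80 ± 0.15 (adjusted p = 0.0115).

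Slc43a3 showed the lowest adjusted p of the members. It belongs by sequence to the Slc43 family of amino acid transporters, while its human product is known as a carrier of purine nucleobases, so it is a member by symbol more than by function. The gene lies on chromosome 2 from 84936579 to 84958509 (plus strand). It had 497, 476 and 454 normalised counts in labelled Erk1/2-KO 1 to 3, against 909, 1181 and 1291 in WT 1 to 3. The labelled Erk1/2-KO libraries were close together, and all lay below the WT libraries. Slc43a3 averaged 476 ± 21.5 in the labelled Erk1/2-KO libraries and 1127 ± 197 in the WT libraries (SD, n = 3 each). On the log2 scale it differed by -1.23 ± 0.17, with a limma adjusted p of 0.0141. It was the only member called with sex as a covariate. The call ended without WT 2 (adjusted p = 0.103) and without labelled Erk1/2-KO 3 (adjusted p = 0.0762). Markers of blood vessel endothelium moved with this gene: Pecam1, Cdh5 and Kdr, 3 of 4 listed, were called lower, and none of the 4 was at 0. Their sum was between 2156 and 2360 normalised counts in the labelled Erk1/2-KO libraries and between 3511 and 4205 in the WT libraries. The part of these cells in the level of Slc43a3 was not tested.

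Slc38a5 lay near the floor of the measurement. It encodes SNAT5, a sodium-coupled exchanger of glutamine, asparagine and other small neutral amino acids for protons, and lies on chromosome X from 8271133 to 8280179 (plus strand). It had 4, 2 and 3 normalised counts in labelled Erk1/2-KO 1 to 3, against 22, 13 and 11 in WT 1 to 3, and the groups did not overlap. Since only the WT levels carried it past the filter, these values are given as a description, and it was not tested when a WT library was left out. Slc38a11, another Slc38 member at this level, had 1, 5 and 3 normalised counts in the labelled Erk1/2-KO libraries, against 13, 13 and 16 in the WT libraries. It reached the filter through its 3 WT libraries alone as well, and its values are likewise a description.

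The sequences next to the starts of 4 members are shown because they cover the called genes Slc7a8 and Slc38a5, the uncalled gene with the lowest adjusted p among those with positive fold changes, Slc1a4, and the cystine exchanger gene Slc7a11, a known target of the amino acid response factor ATF4. They are RefSeq windows of 250 bases before a start (GRCm38.p6), cut back to the longest run outside exons annotated by GENCODE, and written 5′ to 3′ on the strand of the gene. The Slc38a5 window lies within the GENCODE span of the gene, before a RefSeq start. The windows cover chr14:54781947-54782136 (minus), chrX:8271261-8271380 (plus), chr11:20332714-20332963 (minus) and chr3:50443615-50443863 (minus). Capitals mark matches to any of 5 motifs searched on both strands: CCGGAAG (ETS factors), TGANTCA (AP-1), TGACGTCA (CRE), TGATGNAAN (the amino acid response element) and CACGTG (E-box).
Slc7a8: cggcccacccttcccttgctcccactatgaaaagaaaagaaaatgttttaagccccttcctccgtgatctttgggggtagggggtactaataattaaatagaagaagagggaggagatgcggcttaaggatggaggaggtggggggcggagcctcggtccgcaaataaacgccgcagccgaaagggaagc
Slc38a5: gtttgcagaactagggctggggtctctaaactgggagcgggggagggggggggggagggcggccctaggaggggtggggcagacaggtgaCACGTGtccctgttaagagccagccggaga
Slc1a4: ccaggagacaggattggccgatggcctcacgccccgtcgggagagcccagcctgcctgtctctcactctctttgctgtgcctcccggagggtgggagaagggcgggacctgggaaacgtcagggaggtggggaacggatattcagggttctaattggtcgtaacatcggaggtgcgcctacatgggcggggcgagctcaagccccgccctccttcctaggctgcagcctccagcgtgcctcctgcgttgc
Slc7a11: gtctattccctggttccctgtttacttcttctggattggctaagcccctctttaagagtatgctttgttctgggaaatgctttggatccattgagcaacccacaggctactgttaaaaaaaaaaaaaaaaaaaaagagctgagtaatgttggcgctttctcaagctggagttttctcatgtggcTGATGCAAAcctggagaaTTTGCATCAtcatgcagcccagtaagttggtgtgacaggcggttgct

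In those windows Slc38a5 held 1 E-box, Slc7a11 held 2 amino acid response matches, 1 on each strand and not overlapping, and Slc7a8 and Slc1a4 held no match to the letters searched. A start was listed for 41 of the 54 members, 52 windows in all. The amino acid response letters occurred in 3 of the 52 windows (5.77%), of Slc7a11 and Slc7a7 only, against 3.44% of 32817 windows of the same length over all genes. For the other motifs the members' share and the share over all genes were 13.5% and 6.02% for the E-box, 11.5% and 6.91% for ETS, 9.62% and 6.75% for AP-1, and 1.92% and 1.55% for CRE. These shares rest on 7, 6, 5 and 1 windows of members. Some genes gave several windows, and overlapping windows of Slc7a6 counted the same ETS site again. No difference in share was tested. A match is a description of letters and was not tied to binding.

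Peptide uptake in the small intestine runs mainly through PEPT1, the proton-coupled transporter of di- and tripeptides encoded by Slc15a1 (chromosome 14, 121459621 to 121505252, minus strand). It had 1059, 2094 and 2247 normalised counts in labelled Erk1/2-KO 1 to 3, against 1824, 1661 and 1363 in WT 1 to 3. The WT values fell inside the range of the labelled Erk1/2-KO values, and the log2 fold change was 0.09 ± 0.30 (limma adjusted p = 0.858). Its lowest values in each group came from labelled Erk1/2-KO 1 and WT 3. Slc15a2, which encodes PEPT2, the high-affinity peptide transporter best known from kidney, had 37, 2 and 18 normalised counts in the labelled Erk1/2-KO libraries, against 59, 118 and 117 in the WT libraries. These groups did not overlap, and the log2 fold change of -2.87 ± 0.89 did not pass (limma adjusted p = 0.0851). It passed with the segment score as a covariate (-2.54 ± 0.70, adjusted p = 0.0335), where 29.2% of all genes were called. It also passed without labelled Erk1/2-KO 1, where 20.6% were called and the Erk1/2-KO label kept only libraries with abundant Xist. With sex as a covariate Slc15a2 did not pass (limma adjusted p = 0.142). The lysosomal peptide and histidine transporters encoded by Slc15a3 and Slc15a4 had log2 fold changes of -0.04 ± 0.21 and -0.43 ± 0.19. Neither was called, although every library labelled Erk1/2-KO lay below every WT library for Slc15a4.

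Neutral amino acids enter enterocytes mainly through B0AT1, encoded by Slc6a19 (chromosome 13, 73679745 to 73704865, minus strand). Slc6a19 had 3272, 4418 and 3882 normalised counts in labelled Erk1/2-KO 1 to 3, against 4213, 4572 and 4846 in WT 1 to 3. It averaged 3857 ± 573 in the labelled Erk1/2-KO libraries and 4544 ± 317 in the WT libraries (SD, n = 3 each), with a difference of -0.24 ± 0.16 in log2 units (limma adjusted p = 0.336). Tmem27, named Cltrn in RefSeq, encodes the partner of B0AT1 in kidney and had at most 4 normalised counts in any library. Slc6a20a, which encodes the imino acid transporter that takes up proline, had 564, 1433 and 1716 normalised counts in labelled Erk1/2-KO 1 to 3, against 1661, 1234 and 559 in WT 1 to 3. Its copy Slc6a20b lies next to it on chromosome 9 (123590800 to 123632565, and Slc6a20a from 123634770 to 123678885) and had at most 18. Reads could have been shared between these copies, so each value alone is uncertain. Slc6a6, which encodes the taurine transporter, had 2593, 3317 and 2556 normalised counts in the labelled Erk1/2-KO libraries, against 2721, 2785 and 4551 in the WT libraries. Neither Slc6a20a (0.09 ± 0.53) nor Slc6a6 (-0.22 ± 0.24 on the log2 scale) was called. Slc6a14, a broad sodium- and chloride-dependent transporter of neutral and cationic amino acids, had at most 15 normalised counts and was not tested.

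**Figure D2:**
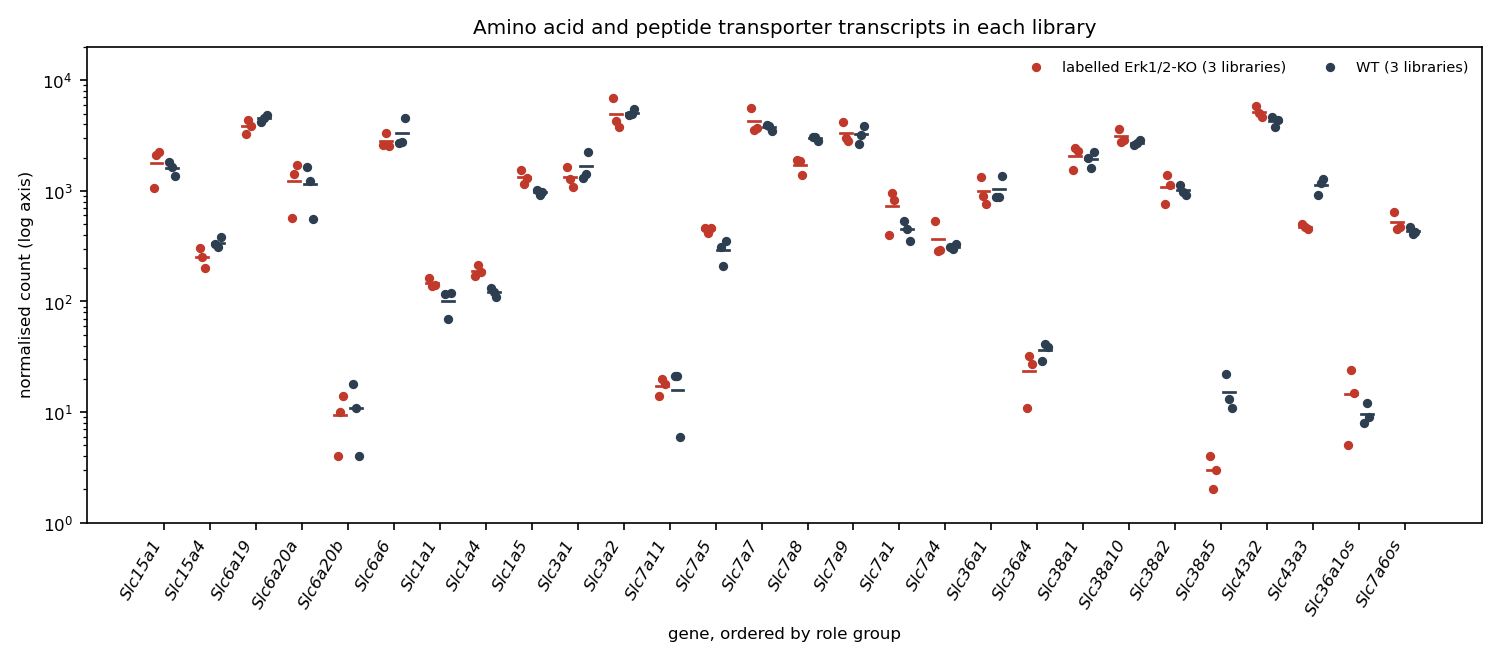
Normalised counts (log axis) of the tested members named by the rule, 1 point per library and a bar at each mean of 3 libraries, labelled Erk1/2-KO left of WT for each gene. The groups are apart for Slc43a3, Slc7a8, Slc38a5 and Slc15a4 below WT, and for Slc1a4, Slc1a5, Slc1a1 and Slc7a5 above WT, while Slc15a1, Slc6a20a and the heavy chain gene Slc3a2 overlap.

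The heavy chain CD98hc, encoded by Slc3a2 (chromosome 19, 8706882 to 8723369, minus strand), was the most abundant member per length in both groups. Per kilobase of annotated exon it stood at 1414 ± 464 normalised counts in the labelled Erk1/2-KO libraries and at 1448 ± 110 in the WT libraries (SD, n = 3 each). Next in the labelled Erk1/2-KO libraries, and behind Slc7a9 in the WT libraries, came Slc7a7, the light chain y+LAT1 that exports arginine and lysine in exchange for neutral amino acids and sodium, at 1293 ± 335 per kilobase in the labelled Erk1/2-KO libraries and 1136 ± 71.2 in the WT libraries. Slc7a9, the light chain of the brush border exchanger for cystine and dibasic amino acids, stood at 1248 ± 269 per kilobase in the labelled Erk1/2-KO libraries and 1211 ± 223 in the WT libraries. In the labelled Erk1/2-KO libraries these levels lay within 1 SD of each other. The heavy chain of the cystine exchanger, rBAT, encoded by Slc3a1, stood lower, at 591 ± 129 per kilobase in the labelled Erk1/2-KO libraries and 734 ± 228 in the WT libraries. None of the 4 was called, with log2 fold changes of -0.08 ± 0.24 for Slc3a2, 0.16 ± 0.20 for Slc7a7, 0.04 ± 0.21 for Slc7a9 and -0.29 ± 0.26 for Slc3a1. Slc7a8, described above, ranked sixth per kilobase in the WT libraries and ninth in those labelled Erk1/2-KO. Of the 7 light chain genes tested, only Slc7a8 was called, where 8.79% of all genes tested were called.

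Slc7a5, which encodes LAT1, an exchanger of large neutral amino acids typical of dividing cells, had 466, 419 and 460 normalised counts in labelled Erk1/2-KO 1 to 3, against 311, 210 and 353 in WT 1 to 3. The groups were apart, and the log2 fold change of 0.65 ± 0.21 did not pass (limma adjusted p = 0.0954). With sex as a covariate Slc7a5 did not pass either (limma adjusted p = 0.154). It passed with the segment score as a covariate (0.70 ± 0.19, adjusted p = 0.0334) and without both labelled Erk1/2-KO 1 and WT 3 (0.78 ± 0.20, adjusted p = 0.0306). Those settings called 29.2% and 26.4% of all genes, and label and sex coincided among the libraries of the latter. Of 12 listed proliferation genes, 6 were called higher and 0 lower, and their sum was between 9959 and 11591 normalised counts in the labelled Erk1/2-KO libraries and between 7547 and 8044 in the WT libraries; none was at 0, and their part in the level of Slc7a5 was not tested. Slc7a15, a rodent light chain for aromatic amino acids, had 525, 783 and 694 normalised counts in the labelled Erk1/2-KO libraries, against 386, 235 and 714 in the WT libraries, and the groups overlapped (0.71 ± 0.39 on the log2 scale, limma adjusted p = 0.262). With sex as a covariate Slc7a15 did not pass either (limma adjusted p = 0.340). Without both labelled Erk1/2-KO 1 and WT 3, where label and sex coincided, it passed at 1.29 ± 0.23 (adjusted p = 0.0101). Slc7a11, the light chain that exchanges cystine for glutamate, had 14, 20 and 18 normalised counts in the labelled Erk1/2-KO libraries, against 21, 21 and 6 in the WT libraries. At these few counts its log2 fold change was 0.27 ± 0.50 (limma adjusted p = 0.737). Atf4 had 3101, 2782 and 2745 normalised counts in the labelled Erk1/2-KO libraries, against 2167, 2110 and 2384 in the WT libraries, apart but not called (0.37 ± 0.13 on the log2 scale, limma adjusted p = 0.112). Its part in the level of Slc7a11 was not tested.

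The Slc1 family holds transporters of glutamate and aspartate and the ASC exchangers of small neutral amino acids. None of its 5 tested members was called, and 3 were apart with higher levels in the libraries labelled Erk1/2-KO, where 37.6% of all genes were apart in either direction. Slc1a5, which encodes the glutamine exchanger ASCT2, had 1535, 1145 and 1316 normalised counts in labelled Erk1/2-KO 1 to 3, against 1019, 921 and 974 in WT 1 to 3. Slc1a4, which encodes ASCT1, a carrier of serine and alanine, had 171, 214 and 184 normalised counts in the labelled Erk1/2-KO libraries, against 133, 121 and 110 in the WT libraries. Slc1a1, which encodes EAAT3, the glutamate transporter of the brush border, had 164, 139 and 140 normalised counts in the labelled Erk1/2-KO libraries, against 117, 69 and 120 in the WT libraries. The log2 fold changes were 0.45 ± 0.15 for Slc1a5, 0.64 ± 0.16 for Slc1a4 and 0.57 ± 0.25 for Slc1a1 (limma adjusted p of 0.104, 0.0580 and 0.175). With the segment score as a covariate, where 29.2% of all genes were called, Slc1a4 (adjusted p = 0.0258) and Slc1a5 (adjusted p = 0.0309) passed. Neither passed with sex as a covariate (limma adjusted p of 0.0949 and 0.106). Slc1a3, a glutamate transporter of glia, had 2, 21 and 22 normalised counts in the labelled Erk1/2-KO libraries, against 52, 47 and 21 in the WT libraries, and overlapped (-1.73 ± 0.83 on the log2 scale, limma adjusted p = 0.206). With sex as a covariate Slc1a3 did not pass either (limma adjusted p = 0.189). It passed with the segment score as a covariate (-2.18 ± 0.36, adjusted p = 0.00723) and without both labelled Erk1/2-KO 1 and WT 3 (-1.16 ± 0.26, adjusted p = 0.0188). Those settings called 29.2% and 26.4% of all genes, and label and sex coincided among the libraries of the latter. Of 5 listed markers of neurons and glia none was called and none was at 0, and their sum was between 1629 and 3005 in the labelled Erk1/2-KO libraries and between 1144 and 2184 in the WT libraries. The glial marker S100b had 15, 42 and 48 normalised counts in labelled Erk1/2-KO 1 to 3, against 223, 280 and 42 in WT 1 to 3. The part of these cells in the level of Slc1a3 was not tested.

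Cationic amino acids are also carried by the CAT proteins. Slc7a1, which encodes the widespread arginine and lysine carrier CAT1, had 397, 961 and 821 normalised counts in labelled Erk1/2-KO 1 to 3, against 539, 456 and 355 in WT 1 to 3. Labelled Erk1/2-KO 2 and 3 lay above all WT libraries and labelled Erk1/2-KO 1 lay inside their range, so the log2 fold change of 0.61 ± 0.35 did not pass (limma adjusted p = 0.271). With sex as a covariate Slc7a1 did not pass either (limma adjusted p = 0.397). It passed without labelled Erk1/2-KO 1 and without both labelled Erk1/2-KO 1 and WT 3, where it was 0.84 ± 0.14 (adjusted p = 0.00874). Those settings called 20.6% and 26.4% of all genes. Label and sex coincided when both libraries were left out. Slc7a4, which is grouped with the CAT genes by sequence, had 529, 288 and 293 normalised counts in the labelled Erk1/2-KO libraries, against 308, 296 and 331 in the WT libraries. Slc7a2, which encodes the inducible carrier CAT2, had 38, 67 and 43 normalised counts in the labelled Erk1/2-KO libraries, against 66, 84 and 82 in the WT libraries, and overlapped (-0.67 ± 0.26 on the log2 scale, limma adjusted p = 0.140). None of the 5 tested members of this group was called.

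The Slc38 and Slc36 families divide between the cell surface and lysosomes. Slc38a2, the inducible neutral amino acid transporter SNAT2, had 755, 1382 and 1120 normalised counts in labelled Erk1/2-KO 1 to 3, against 1127, 983 and 926 in WT 1 to 3, and its log2 fold change was 0.06 ± 0.23 (limma adjusted p = 0.874). Slc38a1, its relative SNAT1, had 1549, 2418 and 2300 normalised counts in the labelled Erk1/2-KO libraries, against 1964, 1616 and 2234 in the WT libraries. Slc38a10, the most abundant Slc38 member, had 3650, 2794 and 2872 normalised counts in the labelled Erk1/2-KO libraries, against 2582, 2712 and 2910 in the WT libraries, a log2 fold change of 0.17 ± 0.15. None of these 3 was called. Slc38a7, which encodes a lysosomal exporter of glutamine, had 1267, 625 and 486 normalised counts in labelled Erk1/2-KO 1 to 3, against 1154, 1459 and 1525 in WT 1 to 3. Labelled Erk1/2-KO 1 lay within the WT range and the others lay below it, a difference of -0.91 ± 0.35 in log2 units (limma adjusted p = 0.133). With sex as a covariate Slc38a7 did not pass either (-0.75 ± 0.34, limma adjusted p = 0.204). The value was -0.75 ± 0.21 with the segment score as a covariate (adjusted p = 0.0337) and -1.23 ± 0.17 without both labelled Erk1/2-KO 1 and WT 3 (adjusted p = 0.00475). Those last settings called 29.2% and 26.4% of all genes, and label and sex coincided among the libraries of the latter. Slc36a1, the proton-coupled transporter PAT1 of the brush border and of lysosomes, had 1330, 902 and 755 normalised counts in the labelled Erk1/2-KO libraries, against 883, 878 and 1371 in the WT libraries, and overlapped (-0.08 ± 0.27). Slc36a4 stayed at 41 or less in every library.

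Several members followed the library rather than the genotype label. Slc38a3, which encodes the glutamine transporter SNAT3, had 544, 16 and 14 normalised counts in labelled Erk1/2-KO 1 to 3, against 26, 8 and 462 in WT 1 to 3. It was high in labelled Erk1/2-KO 1 and WT 3 and low in the other 4 libraries. Slc38a6 had 474, 134 and 162 normalised counts in the labelled Erk1/2-KO libraries, against 152, 232 and 505 in the WT libraries, high in the same libraries. Slc6a20a and Slc15a1 ran the other way, with their lowest values in each group in these libraries. Some segment genes of both kinds stood apart there. Of the proximal genes, Cybrd1, an iron reductase of the duodenum, had 224, 9894 and 7285 normalised counts in labelled Erk1/2-KO 1 to 3, against 6634, 3087 and 402 in WT 1 to 3, and Adh6a had 335, 3990 and 4123 normalised counts in the labelled Erk1/2-KO libraries, against 3623, 2272 and 133 in the WT libraries. Of the ileal genes, Slc51a, a subunit of the basolateral bile acid exporter, had 7367, 2501 and 2194 normalised counts in labelled Erk1/2-KO 1 to 3, against 2713, 2593 and 5310 in WT 1 to 3. The ileal hormone gene Fgf15 had 390, 0 and 0 normalised counts in labelled Erk1/2-KO 1 to 3, against 5, 13 and 1975 in WT 1 to 3. All 6 listed ileal genes summed to 10542, 3027 and 2738 normalised counts in labelled Erk1/2-KO 1 to 3, against 3462, 3255 and 7948 in WT 1 to 3, high in the same libraries. Slc51a held the largest part of that sum, and the other ileal genes differed. Slc51b was also high in both libraries. Fabp6 had 1947 normalised counts in labelled Erk1/2-KO 1 and only 4 in WT 3. Nr0b2 had 478, 383 and 290 in WT 1 to 3, lowest in WT 3, and Slc10a2 had at most 12 in any library. All 11 listed proximal genes summed to 77300, 84125 and 74770 normalised counts in labelled Erk1/2-KO 1 to 3, against 62243, 53484 and 37962 in WT 1 to 3, so this sum was low in WT 3 and not in labelled Erk1/2-KO 1. Their part in the levels of the members was not tested.

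**Figure D3:**
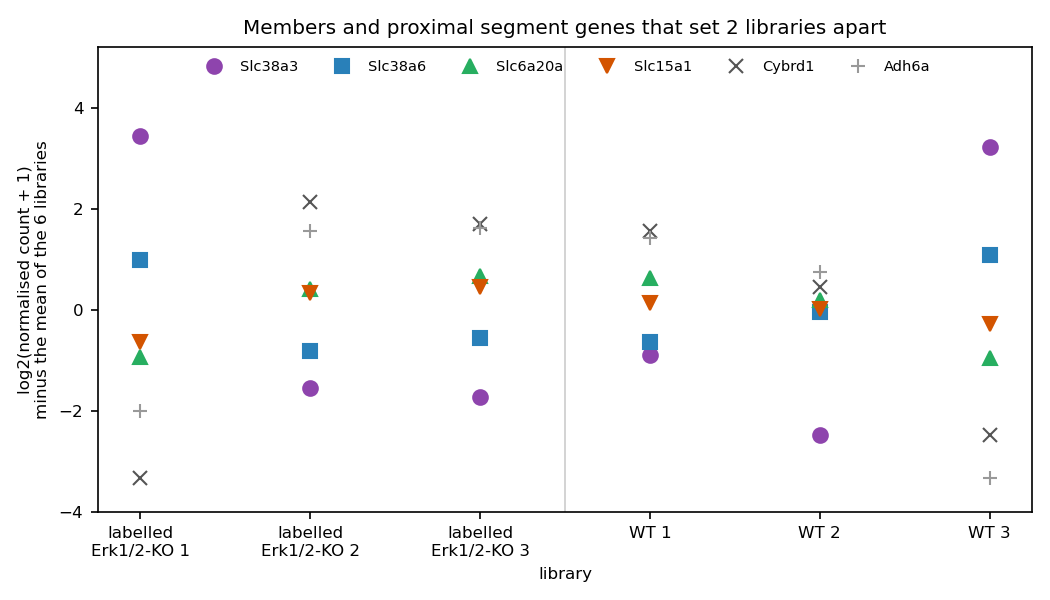
Log2(normalised count + 1) minus the mean of the 6 libraries for 4 members and for the proximal segment genes Cybrd1 and Adh6a, 1 point per library. Slc38a3 and Slc38a6 are high and Slc6a20a, Slc15a1, Cybrd1 and Adh6a are low in labelled Erk1/2-KO 1 and in WT 3.

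The Slc43 family also holds uniporters of branched-chain and aromatic amino acids. Slc43a2, which encodes the basolateral exporter LAT4 (chromosome 11, 75531694 to 75577575, plus strand), had 5905, 5042 and 4633 normalised counts in labelled Erk1/2-KO 1 to 3, against 4650, 3751 and 4413 in WT 1 to 3. The lowest labelled Erk1/2-KO library lay just below the highest WT library, and the log2 fold change was 0.28 ± 0.16 (limma adjusted p = 0.278). Slc43a1, which encodes LAT3, had 64, 80 and 71 normalised counts in the labelled Erk1/2-KO libraries, against 48, 62 and 60 in the WT libraries, apart and not called (0.34 ± 0.20). Slc43a3, described above, was the only 1 of the 3 members of the family called, where 8.79% of all genes tested were called.

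Among genes that sense amino acids for mTORC1, Sesn2, Gatsl3, Gatsl2 and Rragd were called lower in the libraries labelled Erk1/2-KO. Of 28 listed partners, ion drivers and sensors of amino acid uptake, 27 were tested, and 4 were called lower and 0 higher, 14.8% against 8.79% of all genes. The median log2 fold change of the 27 was 0.02. At an unadjusted p under 0.05, 1 was higher and 6 lower, 25.9% of those tested, against 30.3% of all genes. Sesn2, the leucine sensor Sestrin2, which is also induced by stress, had 409, 256 and 229 normalised counts in labelled Erk1/2-KO 1 to 3, against 578, 720 and 674 in WT 1 to 3, a difference of -1.18 ± 0.24 in log2 units (limma adjusted p = 0.0342). Gatsl3, named Castor1 in RefSeq and encoding an arginine sensor, had 74, 47 and 46 normalised counts in the labelled Erk1/2-KO libraries, against 102, 113 and 120 in the WT libraries (-1.02 ± 0.23, limma adjusted p = 0.0445). Its relative Gatsl2, named Castor2 in RefSeq, had 300, 544 and 408 normalised counts in the labelled Erk1/2-KO libraries, against 780, 924 and 929 in the WT libraries (-1.11 ± 0.23, limma adjusted p = 0.0358). Rragd, which encodes the GTPase RagD that docks mTORC1 on lysosomes, had 818, 1214 and 930 normalised counts in the labelled Erk1/2-KO libraries, against 1485, 1704 and 1947 in the WT libraries (-0.80 ± 0.19, limma adjusted p = 0.0479). For all 4 the genotypes were apart, as they were in either direction for 29.6% of the tested list and 37.6% of all genes. Of their relatives, Sesn1 (-0.17 ± 0.15), Sesn3 (-0.54 ± 0.20), Rraga (0.25 ± 0.14), Rragb (-1.38 ± 0.40) and Rragc (0.09 ± 0.22) were not called. In every labelled Erk1/2-KO library Rraga lay above WT, and Sesn3 and Rragb lay below. Rragb passed the filter through its WT levels alone. Without any 1 WT library, or without labelled Erk1/2-KO 3, none of the 4 was called; without labelled Erk1/2-KO 1 all 4 were; and without labelled Erk1/2-KO 2 only Gatsl2 and Rragd were. With sex as a covariate only Gatsl2 was called (limma adjusted p = 0.0448), while Sesn2 had an adjusted p of 0.0612, Gatsl3 of 0.0811 and Rragd of 0.0508. Slc38a9, the lysosomal member that acts as an arginine sensor, had 127, 104 and 146 normalised counts in the labelled Erk1/2-KO libraries, against 133, 172 and 145 in the WT libraries, and overlapped (-0.26 ± 0.19). The scaffold genes Lamtor1 to Lamtor5, Mtor and Rptor were not called. Among the drivers of uptake, the brush border sodium-proton exchanger gene Slc9a3 had 927, 5964 and 3878 normalised counts in the labelled Erk1/2-KO libraries, against 4195, 4017 and 1419 in the WT libraries, low in labelled Erk1/2-KO 1 and WT 3, and Atp1b1, which encodes a subunit of the sodium pump, was not called (0.42 ± 0.33 on the log2 scale).

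**Figure D4:**
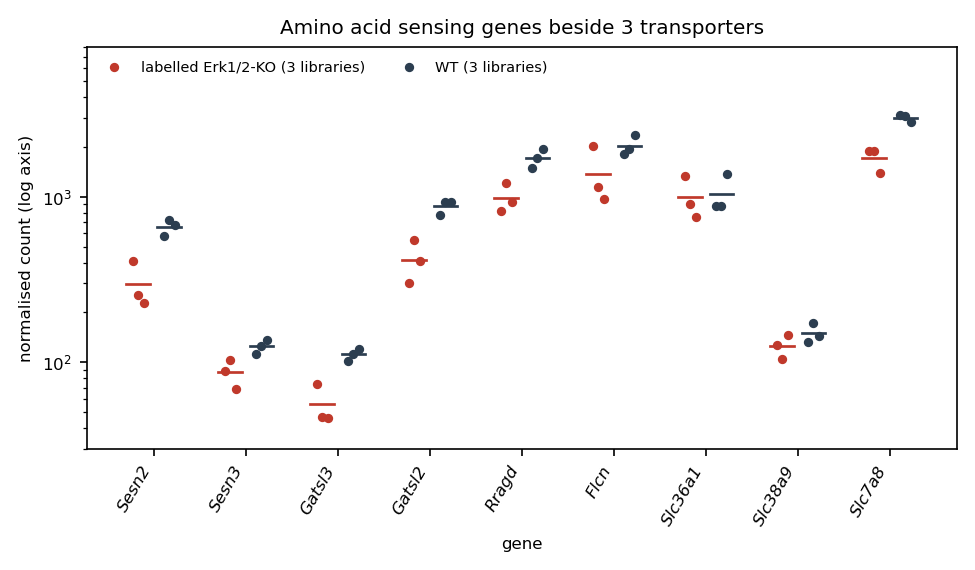
Normalised counts (log axis) of 6 genes of amino acid sensing and of the transporters Slc36a1, Slc38a9 and Slc7a8, 1 point per library and a bar at each mean of 3 libraries, labelled Erk1/2-KO left of WT. Sesn2, Gatsl3, Gatsl2 and Rragd lie below WT in every labelled Erk1/2-KO library, as does Slc7a8, while Slc36a1 and Slc38a9 overlap.

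Amino acid carriers outside the rule gave no call. Of 23 listed, 14 were tested, and at an unadjusted p under 0.05, 2 were higher and 3 lower, which is 35.7% of those tested, against 30.3% of all genes. Slc25a22, a mitochondrial glutamate carrier, had 4990, 3719 and 4823 normalised counts in labelled Erk1/2-KO 1 to 3, against 2900, 2681 and 2956 in WT 1 to 3, and lay just over the threshold (0.65 ± 0.16, limma adjusted p = 0.0508). Slc16a10, the basolateral carrier TAT1 of aromatic amino acids, had 1589, 1831 and 1139 normalised counts in the labelled Erk1/2-KO libraries, against 2346, 2575 and 2144 in the WT libraries, apart and not called (-0.66 ± 0.20, limma adjusted p = 0.0829). Of the basolateral exit genes named here, Slc7a8 and Slc16a10 lay below WT in every labelled Erk1/2-KO library, and Slc7a7 and Slc43a2 overlapped WT. Slc16a10 was added after its values were seen, and 37.6% of all genes tested were apart in either direction.

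The remaining tested members, Slc1a2, Slc38a4, Slc7a3, Slc7a6 and Slc7a14, overlapped between the groups, with log2 fold changes from -0.73 to 0.32. Slc7a12 was at 0 in every library, and 8 members had fewer than 10 normalised counts in all of them, namely Slc15a5, Slc1a6, Slc1a7, Slc36a3, Slc38a8, Slc7a10, Slc7a12 and Slc7a13. Slc38a8 was at 0 in all WT libraries and at 6, 4 and 2 in labelled Erk1/2-KO 1 to 3, did not pass the filter, and was called higher when no filter was used. Slc36a2 had at most 15 normalised counts. Of the symbols that name no transporter, Slc7a6os had 648, 450 and 471 normalised counts in the labelled Erk1/2-KO libraries, against 469, 410 and 425 in the WT libraries, and Slc36a1os had at most 24. Neither was called, and in GENCODE neither overlaps the transporter gene it is named after.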

How the data were processed

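Small intestine RNA of C57BL/6 mice at postnatal day 14 was sequenced in 3 libraries labelled Erk1/2-KO and 3 labelled WT, and groups were taken from the sample titles. Per the labels' protocols, Trizol was used for RNA and the Illumina TruSeq kit for polyA libraries. TopHat2 2.1.0, HTSeq 0.6.0, DESeq2 and build mm10 appear in the submitters' processing notes, with no order. Annotation, strand setting and treatment of multi-mapped reads: not given in the sources used here. Antisense genes and near-identical copies may therefore hold each other's reads. Each deposited file holds 1 library as a score for every symbol, in whole numbers that skip or double at the low end, as counts divided by 1 factor per library and rounded would. They are called normalised counts, and no counting intervals were computed because single reads could not be recovered.

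Tests used limma 3.58.1 in R 4.3.3 with genotype as the only term and a variance trend, on log2(normalised count + 1) of the 14686 genes that reached 10 in 3 or more libraries (4 residual and 2.99 prior degrees of freedom), two-sided with Benjamini-Hochberg adjustment at 0.05. The authors' scaling was kept. Fold changes are on this scale. Coordinates and exon lengths came from GENCODE vM21 (GRCm38), in which all 54 members had a match. Named genes were all called members, the 2 most abundant of each role group and a set of main intestinal routes, 29 in all. Slc38a11, Slc15a2, Slc38a3, Slc38a6, Slc38a7, Slc1a3, Slc7a15, Slc7a2, Slc15a3, Slc38a9 and Slc43a1, and uncalled genes of the other lists, were added after their values were seen. Some listed genes are not reported here. The members, lists, motifs and alternatives were chosen with earlier results of these data known. The script was tested on simulated data. Alternatives changed pseudocount, filter, scaling, variance prior, threshold, covariates and libraries.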

Additional observations from a re-analysis of the deposited data

How the results depend on the processing

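The lower levels of Slc43a3 and Slc7a8 held in direction under every setting, and all settings drew on the same 6 libraries. Slc38a5 passed the filter through its WT levels alone, so its direction is no support. Counts of calls over all genes (1291), members called higher (0), members called lower (3), partners and sensors called (4) and other carriers called (0) moved most with the libraries and covariates. With the segment score they were 4285, 3, 7, 9 and 7; with sex they were 459, 0, 1, 1 and 0; and without both labelled Erk1/2-KO 1 and WT 3 they were 3762, 4, 5, 9 and 4. Without both libraries, label and sex coincided among those left. Leaving out each library in turn gave 28 to 2998 genes, 0 to 2 members higher, 0 to 6 lower, 0 to 6 partners and sensors, and 0 to 4 other carriers. At a threshold of 0.1 there were 2847 genes, 2 members higher, 5 lower and 3 other carriers, and at 0.01 there were 52 genes, 0 members lower and 0 partners and sensors. With no filter 1 member was called higher and 2 partners and sensors were called, and a pseudocount of 5 or library totals gave 1 other carrier. With a filter on the mean Slc38a5 and Slc38a11 were not tested, and 2 members were called lower. Replicate numbers did not pair the libraries: same-numbered libraries deviated with correlations of -0.373, 0.302 and -0.161. With the replicate number as a block 64 genes, 0 members and 0 partners and sensors were called.

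The median log2 fold change of the members was -0.12 with library totals, -0.025 with sex, -0.026 without both libraries, and -0.11 to 0.061 with 1 library left out. That of partners and sensors was -0.15 with library totals, -0.051 with sex and -0.10 to 0.053 with 1 library left out; that of other carriers was -0.26 with library totals and -0.20 to 0.086 with 1 left out. Some uncalled genes changed sign. Log2 fold changes were -0.084 for Slc15a1, -0.080 for Slc38a1, -0.11 for Slc38a2, -0.082 for Slc6a20a, -0.015 for Slc7a7, -0.14 for Slc7a9, -0.067 for Slc38a3 with library totals; -0.062 for Slc15a1, 0.062 for Slc36a1, -0.039 for Slc38a2, 0.024 for Slc3a2, -0.21 for Slc6a20a, 0.070 for Slc38a6 with the segment score; -0.023 for Slc15a1, -0.062 for Slc38a1, -0.027 for Slc38a2, 0.016 for Slc3a2 with sex; -0.017 for Slc7a9 with upper-quartile factors; and 0.081 for Slc6a6, -0.14 for Slc7a11, -0.056 for Slc7a4, -0.10 for Slc7a7 without both libraries. With 1 library left out the ranges were Slc15a1 -0.11 to 0.43, Slc36a1 -0.31 to 0.14, Slc38a1 -0.031 to 0.30, Slc38a2 -0.13 to 0.30, Slc3a2 -0.33 to 0.090, Slc6a20a -0.36 to 0.58, Slc6a20b -0.69 to 0.30, Slc6a6 -0.35 to 0.025, Slc7a11 -0.28 to 0.55, Slc7a4 -0.10 to 0.34, Slc7a7 -0.044 to 0.28, Slc7a9 -0.13 to 0.17, Slc38a3 -1.60 to 1.73, Slc38a6 -0.82 to 0.21. The cause was not tested. With 3 libraries a group, the labels do not show whether the spread is biological, and members near the floor are measured with few counts.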
